A study of Homo sapiens with 14 samples.

Results

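Cells of the human melanoma line WM9 that had been kept in PLX4720 for 48, 60 or 72 h were compared with cells kept in the solvent DMSO. The 6 arrays labelled PLX4720 at 48, 60 and 72 h, 2 for each time, were pooled with equal weight for each time and set against the 2 arrays labelled DMSO at 96 h, so that 8 of the 14 arrays of the series enter the comparison. PLX4720 was given at 10 µM in every treated group. Further treated groups, PLX4720 at 24 h and at 96 h with 2 arrays each, were used to ask what had already changed before 48 h and what went on changing after 72 h, and the arrays at 12 h only helped to estimate the spread. The series text calls the pairs of arrays biological replicates, without saying how the cultures were separated. All cells came from 1 cell line, and the DMSO arrays analysed here were both taken at 96 h. In the comparison of 48 to 72 h with DMSO, the effect of the drug and the effect of hours in culture can therefore not be told apart. The PLX4720 arrays at 96 h match the DMSO arrays in hours, but that difference was not tested here.

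PLX4720 is a research compound that inhibits the BRAF kinase, with most force in its V600-mutated form, and is closely related to the drug vemurafenib. BRAF lies above MEK and ERK in the MAP kinase cascade, and in melanoma an active cascade keeps up transcription of growth and feedback genes such as the Sprouty, DUSP and ETS-family genes and cyclin D1. When the cascade is blocked, melanoma cells typically leave the cell cycle, and the melanocyte regulator MITF and its target PPARGC1A (PGC1-alpha), an activator of mitochondrial gene expression, are known to respond. The series title names oxidative phosphorylation, the making of ATP by the respiratory chain, and cellular senescence, a lasting exit from the cell cycle with changes of the nuclear lamina, lysosomes and secreted factors, as its subjects.

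The values below are log2 normalized probe intensities, called log2 levels, for 12734 genes with 1 probe each. The fit gives the log2 difference between PLX4720 at 48 to 72 h and DMSO with its standard error (SE), over 6 and 2 arrays, and a gene was said to rise or fall when its Benjamini-Hochberg adjusted p from limma was under 0.05. Raw medians lay between 246 and 308 on the 48 to 72 h arrays, against 366 and 370 on the DMSO arrays, and the signal a probe had to pass to count as above background was 279 to 343 and 409 to 427. The DMSO arrays also differed more from each other, with an SD of the replicate difference across genes of 0.559 and 7% of genes over 2-fold apart, against an SD of 0.301 to 0.338 within the 48, 60 and 72 h pairs. All 9 melanoma markers were above background on at least 1 of the 8 arrays, and their summed normalized intensity was 21600 to 27600 on the PLX4720 arrays and 16700 to 23300 on the DMSO arrays. COL1A1, COL3A1 and POSTN of fibroblasts, KRT1, KRT5, KRT14 and DSG3 of keratinocytes, PECAM1, CDH5, VWF and CLDN5 of endothelium, and PTPRC, CD3E and MS4A1 of leukocytes were above background on none of the 8. DCN and LUM of fibroblasts and CD2 of leukocytes were above background on all 8, KDR of endothelium on 5 PLX4720 arrays and 1 DMSO array, and PDGFRB of fibroblasts on no PLX4720 array and both DMSO arrays. The summed levels of these lists were 1530 to 2160 and 1670 to 1730 for fibroblasts, 9340 to 11000 and 8250 to 10900 for keratinocytes, 494 to 573 and 536 to 549 for endothelium, and 18600 to 20400 and 14700 to 17600 for leukocytes, on the PLX4720 and the DMSO arrays in that order. The keratinocyte and leukocyte sums were carried by KRT10 and CD68, which were above background on all 8 arrays.

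Between 48 and 72 h a large part of the measured transcriptome stood apart from DMSO. Of 12734 genes, 4384 passed the test (34.4%), 2471 of them higher in PLX4720 (19.4%) and 1913 lower (15.0%). In 3998 of the 4384 genes (91.2%) all 6 PLX4720 arrays lay beyond both DMSO arrays, as they did in 4975 of all genes (39.1%). The median log2 difference over all genes was 0.07, so a list median is read against that value. Other settings moved these counts: with array weights, which gave each DMSO array 0.312 and the 48 to 72 h arrays 1.09 to 1.42, 1962 genes passed (1064 higher and 898 lower), and with median scaling in place of quantile normalization 4117 passed with the split turned to 1052 higher and 3065 lower. Median scaling put the median of all genes at -0.17, so that small differences of either sign depend on the scaling.

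Few genes passed a test for change between 48 and 72 h. Each time on its own differed from DMSO in 3198 genes at 48 h (25.1%), 3214 at 60 h (25.2%) and 3537 at 72 h (27.8%). Of the 4384 genes of the pooled comparison, 2392 (54.6%) passed in the same direction at all 3 times, 340 (7.76%) passed at none of them alone, and 4382 had the same sign at all 3 times. The 3 differences share the DMSO arrays, and the genes were chosen on the mean of the 3. Equal signs were therefore favoured by the choice and are no evidence of a constant level. The 3 time means of these genes spanned a median of 0.25 on the log2 scale, the same as over all genes, and in 3929 (89.6%) the span was under 0.5. An F test among the 3 times called 1 gene, SCARA5 (0.00785% of 12734), while 475 genes had an unadjusted p under 0.05. The call for SCARA5 was lost without either array of 48 h or either array of 72 h.

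**Figure D1:**
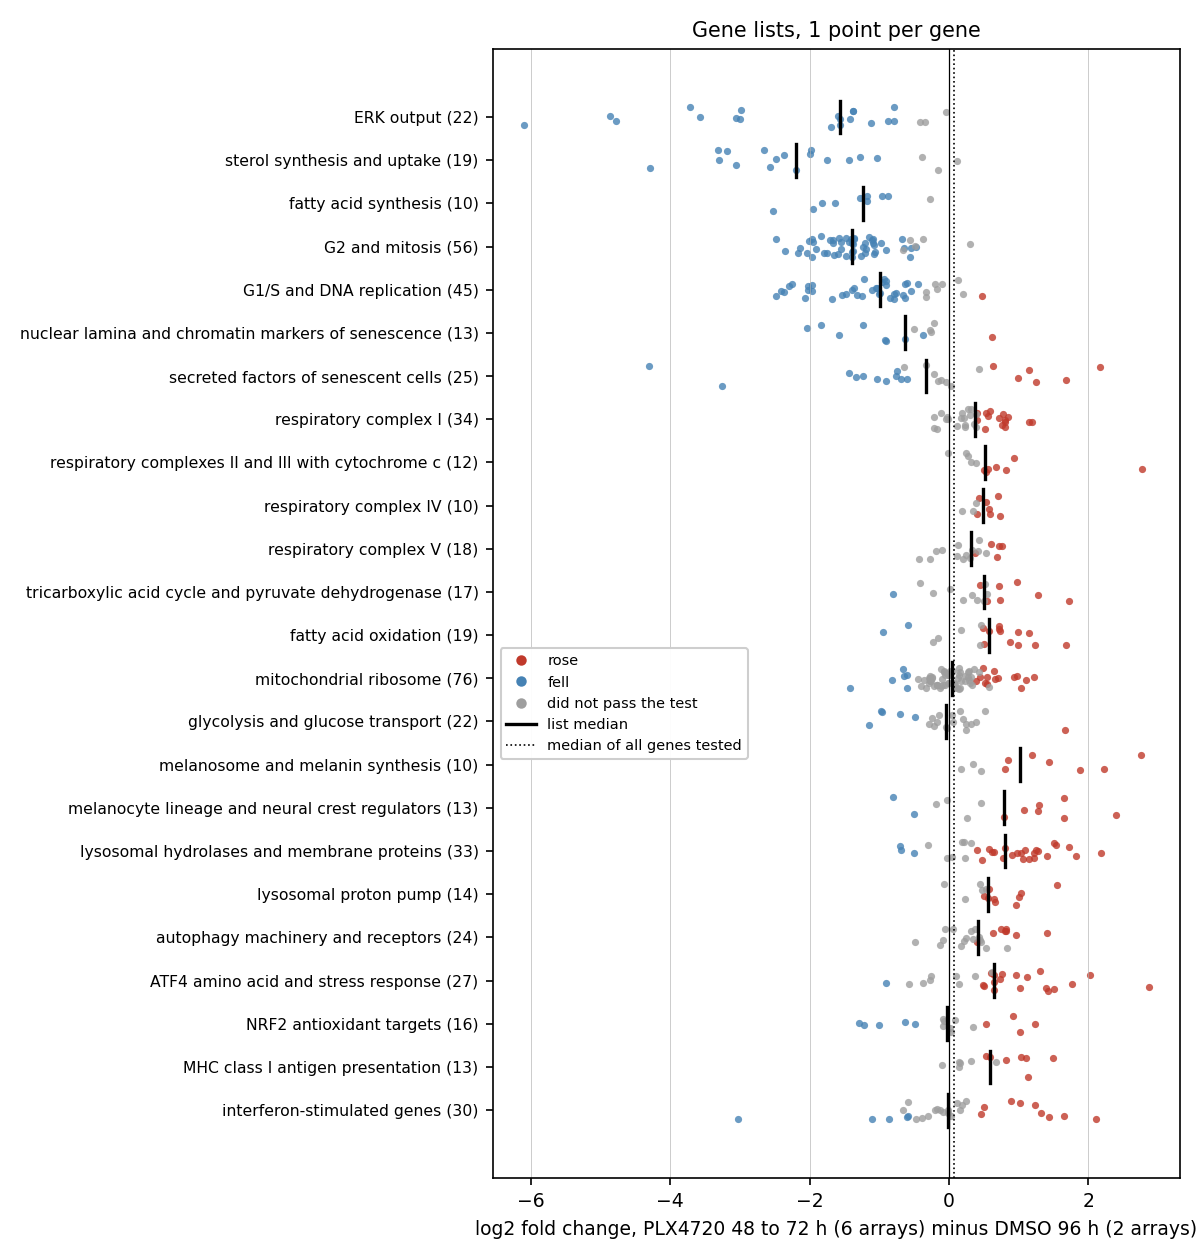
Log2 difference of each gene between PLX4720 at 48 to 72 h and DMSO (x axis) for 24 gene lists (rows, with the number of genes tested). Red points rose, blue points fell and grey points did not pass the test, black bars are list medians and the dotted line is the median of all genes. The ERK, sterol and cell cycle lists lie almost wholly left of 0, and most lysosomal, pigment and respiratory genes lie to the right.

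Most output genes of the ERK pathway were lower than in DMSO at 48, 60 and 72 h. Of 22 measured genes of the list, 19 fell and none rose, against 15.0% falling among all genes, and the list median was -1.56. SPRY4, a Sprouty feedback inhibitor of receptor tyrosine kinase signalling, had log2 levels of 6.79, 6.997 and 7.20 (lowest, median and highest of the 6 PLX4720 arrays), against 13.09 and 13.08 on the DMSO arrays. It was not above background on any of the 6 PLX4720 arrays, so the fold is a bound: SPRY4 was at least 52.9-fold lower (adjusted p = 1.75e-09). ETV5, an ETS transcription factor induced by ERK, lay at 7.71, 8.31 and 8.64 in PLX4720, against 12.96 and 13.18 in DMSO, a 29-fold fall (log2 difference -4.86 ± 0.14, SE; adjusted p = 4.09e-10). No PLX4720 array came within several log2 units of a DMSO array for these genes. DUSP6, the phosphatase that inactivates ERK, fell 7.94-fold (-2.99 ± 0.15; adjusted p = 2.4e-08), and SPRY1 and SPRY2 of the same list, named after their values were seen, had log2 differences of -3.57 and -3.72. MYC fell 2.95-fold (-1.56 ± 0.14; adjusted p = 3.04e-06).

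CCND1, which encodes cyclin D1 and links ERK to the cell cycle, had log2 levels of 11.44, 11.74 and 12.03 in PLX4720, against 14.96 and 14.63 in DMSO. It fell 8.34-fold (-3.06 ± 0.14; adjusted p = 8.81e-09), the groups were far apart, and it stayed well above background. CCND1 had been lower still at 24 h, with log2 levels of 10.50 and 10.52, and its level at 48 to 72 h was 1.22 ± 0.14 above that (adjusted p = 9.7e-05). MYC likewise stood 0.91 above its 24 h level (adjusted p = 0.000969). Of the 22 ERK output genes, 5 were higher and 3 lower than at 24 h, where 6.86% and 7.96% of all genes were. Compared with 96 h, none of the 22 was higher at 48 to 72 h and 4 were lower, where 1.30% and 0.872% of all genes were. ETV5 averaged 7.72, 8.31 and 8.60 at 48, 60 and 72 h, and the F test among these times did not call it (adjusted p = 0.227). Its pooled level was 1.07 ± 0.14 below that at 96 h (adjusted p = 0.00231).

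The 12 largest rises with no overlap between groups included a chaperone, secreted proteins and receptors. CRYAB, a small heat shock protein that binds unfolded proteins, had log2 levels of 14.11, 14.93 and 15.22 in PLX4720, against 9.37 and 10.31 in DMSO, a rise of 4.91 ± 0.20 on the log2 scale (adjusted p = 4.07e-09). RAP1GAP, which switches off the small GTPase RAP1, lay at 12.94, 13.18 and 13.31, against 8.14 and 8.53 in DMSO, and rose 28.4-fold (4.83 ± 0.17; adjusted p = 1.52e-09). LGI3, a secreted leucine-rich repeat protein, lay at 11.17, 11.91 and 12.21, against 6.50 and 7.01 on DMSO arrays where its probe was not above background, and was at least 21.3-fold higher (adjusted p = 6.11e-09). For each of these genes the lowest PLX4720 array was far above the higher DMSO array. DIPK1C rose 25-fold, with only 1 DMSO array above background, and NPTX1, a neuronal pentraxin, 18.6-fold. SORCS2, a receptor of the sortilin family, was at least 7.13-fold higher and FOLR3, a folate receptor, at least 4.84-fold, both with no DMSO array above background. The remaining members of the 12 largest rises were ID3 (12.6-fold), the matricellular gene CCN5 (10.8-fold), the trypsin inhibitor SPINK1 (10.7-fold), ANGPTL7 (10.1-fold) and the forkhead factor FOXQ1 (8.86-fold).

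The largest falls besides SPRY4 and ETV5 included receptors and a matrix protease inhibitor. VIPR1, a receptor for vasoactive intestinal peptide, had log2 levels of 8.80, 9.19 and 9.43 in PLX4720, against 14.17 and 14.44 in DMSO, and fell 35.3-fold (-5.14 ± 0.20; adjusted p = 2.9e-09). TIMP3, an inhibitor of matrix metalloproteinases, lay at 8.98, 9.32 and 9.45, against 13.45 and 13.72, and fell 19.8-fold (-4.31 ± 0.18; adjusted p = 4.07e-09). The groups did not overlap for either gene, which was a condition for entry among these falls. PHLDA2 fell 27.6-fold with 1 of 6 PLX4720 arrays above background, CEMIP, a protein needed for hyaluronan breakdown, 21-fold, the G protein-coupled receptor MRGPRX3 20.2-fold, the antisense transcript SLC67A1-AS 18.6-fold, the calcium channel subunit CACNA2D4 16.3-fold with 1 of 6 PLX4720 arrays above background, and SHISA2 15.9-fold with 2 of 6. Folds of genes mostly below background in PLX4720 are imprecise. ACOX2, a peroxisomal oxidase, was above background on none of the 6 PLX4720 arrays and was at least 6.96-fold lower.

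**Figure D2:**
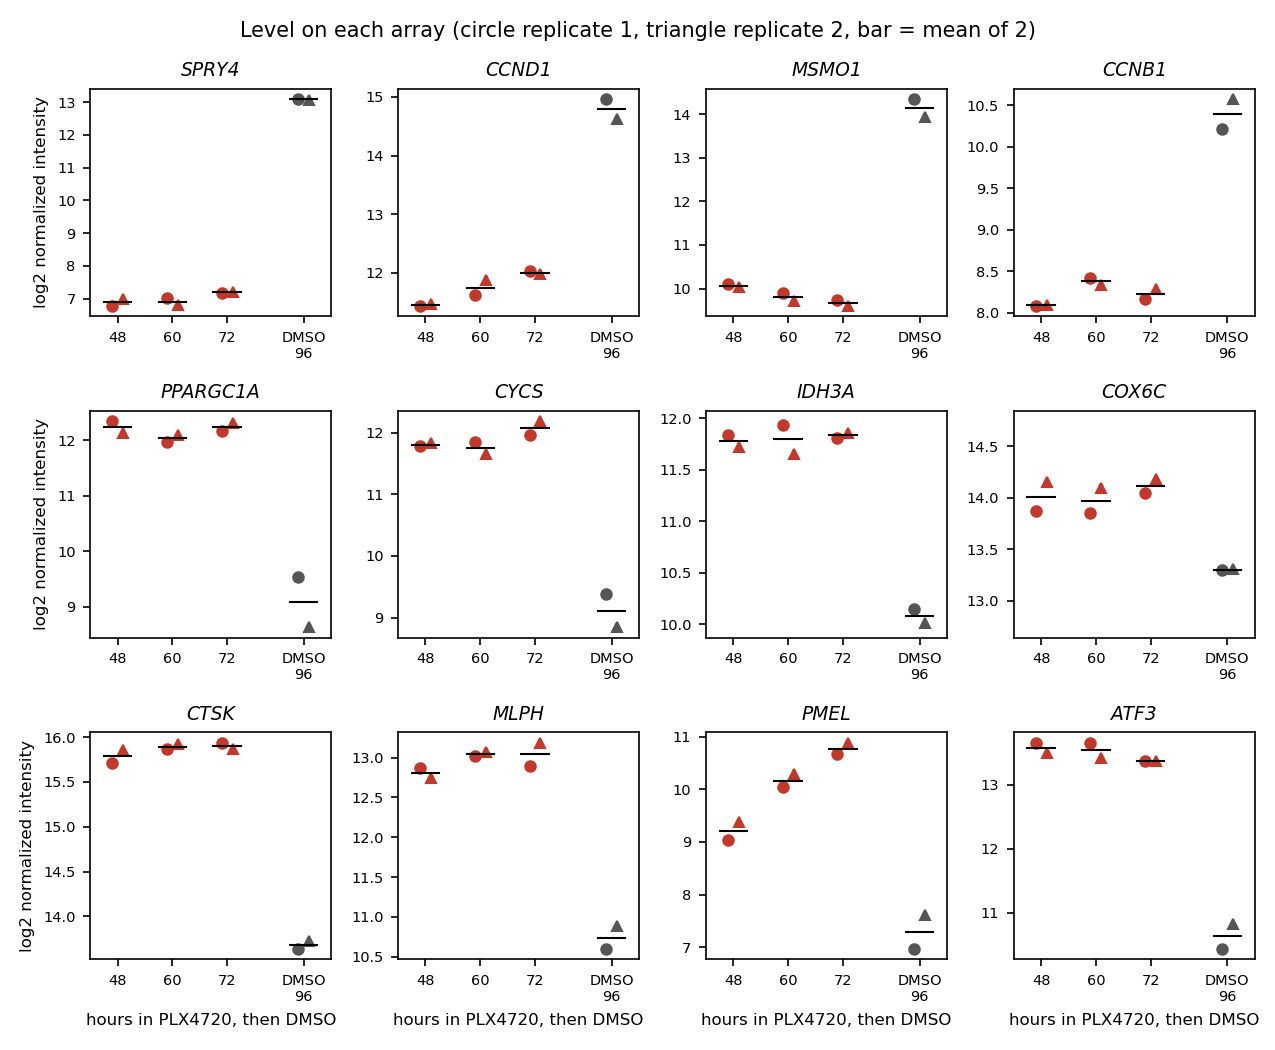
Log2 normalized intensity (y axis, with its own range in each panel) of 12 genes on each array at 48, 60 and 72 h in PLX4720 (red) and in DMSO at 96 h (grey). Circles are replicate 1, triangles replicate 2 and bars the mean of 2 arrays. The treated points of each gene lie apart from both DMSO points, and the time means of PMEL are 9.20 at 48 h and 10.77 at 72 h.

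Most cell cycle genes fell. Of 56 genes of G2 and mitosis, 51 fell and none rose, with a list median of -1.39. Of 45 genes of G1/S and DNA replication 37 fell and 1 rose, with a median of -0.996, where 15.0% of all genes fell and 19.4% rose. RNA was measured in bulk, so fewer cycling cells and less of these transcripts per cell cannot be told apart. CCNB1, the cyclin that drives entry into mitosis, had log2 levels of 8.09, 8.23 and 8.42 in PLX4720, against 10.22 and 10.57 in DMSO, and fell 4.49-fold (-2.17 ± 0.15; adjusted p = 3.03e-07). AURKB, a kinase of chromosome segregation, lay at 8.12, 8.25 and 8.53, against 10.48 and 10.85, a 5.13-fold fall, and NEK2, a centrosome kinase, fell 5.60-fold. UHRF1, which keeps up DNA methylation at replication, lay at 9.19, 9.69 and 9.99, against 12.27 and 11.97, and fell 5.61-fold (-2.49 ± 0.15; adjusted p = 1.15e-07). These genes lay lower on every PLX4720 array than on either DMSO array. CDC45, a helicase subunit, fell 5.34-fold and MCM2, part of the same helicase, 2.33-fold (adjusted p = 0.000424). MKI67 was above background on 1 DMSO array and on no PLX4720 array, and its log2 difference of -0.48 ± 0.23 did not pass (adjusted p = 0.121).

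The exception within G1/S was CCNE1, cyclin E1, which rose 1.38-fold (0.47 ± 0.16; adjusted p = 0.0326), a call that ended without the first DMSO array and in several other settings. The fall of the mitotic genes was not at its deepest in this window. Against 24 h, 26 of the 56 G2 and mitosis genes were higher at 48 to 72 h and 2 were lower, where 6.86% of all genes were higher and 7.96% lower, and the list median was 0.58. CCNB1 stood 0.59 above its 24 h level (adjusted p = 0.0186) and AURKB 0.82 (adjusted p = 0.00865), still far under DMSO.

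Promoters of these 2 lists were read to show the short sites that cell cycle genes are known to share, the cell cycle genes homology region of mitotic genes (letters TTTGAA) and the E2F site of replication genes (letters TTTNNCGC). Windows of 250 bases before to 50 bases after the start of each gene were taken from RefSeq on GRCh38.p14, and both strands were searched. TTTGAA was found in 36 of 48 G2 and mitosis promoters (75%), against 15.4% of all 27305 promoters and 10.4% of the 10232 promoters of tested genes. TTTNNCGC was found in 25 of 42 G1/S promoters (59.5%), against 6.9% and 10.3%. A match of letters is a description and not a bound site. The promoters below, of 2 mitotic genes and 1 replication gene, are among those with a match whose genes fell most, chosen after their values were seen, with the matched letters in capitals. UHRF1 had the largest fall of the G1/S genes with a match and PRC1 that of the mitotic genes, while ANLN, which lay between PRC1 and CDC20, is not printed. No printed match overlaps a match to another of the motifs searched.
PRC1 (chr15:90994486-90994785, minus strand): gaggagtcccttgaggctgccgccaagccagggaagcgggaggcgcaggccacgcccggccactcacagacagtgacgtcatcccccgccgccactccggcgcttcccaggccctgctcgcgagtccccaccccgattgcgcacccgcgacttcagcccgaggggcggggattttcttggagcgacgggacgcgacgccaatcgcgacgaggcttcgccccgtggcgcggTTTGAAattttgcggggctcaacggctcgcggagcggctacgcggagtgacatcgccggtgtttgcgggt
CDC20 (chr1:43358731-43359030, plus strand): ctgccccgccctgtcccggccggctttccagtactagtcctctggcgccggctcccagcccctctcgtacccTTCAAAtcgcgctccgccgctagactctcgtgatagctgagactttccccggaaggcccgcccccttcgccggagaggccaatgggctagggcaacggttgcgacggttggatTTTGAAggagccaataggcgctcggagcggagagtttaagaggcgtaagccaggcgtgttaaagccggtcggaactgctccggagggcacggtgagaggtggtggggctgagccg
UHRF1 (chr19:4909251-4909550, plus strand): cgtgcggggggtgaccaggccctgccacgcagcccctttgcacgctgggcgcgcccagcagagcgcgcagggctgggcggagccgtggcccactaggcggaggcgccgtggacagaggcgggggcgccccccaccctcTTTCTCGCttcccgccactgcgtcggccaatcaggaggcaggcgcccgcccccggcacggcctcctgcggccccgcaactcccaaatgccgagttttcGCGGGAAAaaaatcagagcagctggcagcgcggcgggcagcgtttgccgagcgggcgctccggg
PRC1, which bundles microtubules of the spindle midzone, has 1 match that begins 20 bases before the start, and it lay at 9.04, 9.45 and 9.55 in PLX4720, against 11.55 and 11.24 in DMSO. CDC20, the activator of the anaphase-promoting complex, has 2 matches, on opposite strands, and lay at 10.20, 10.50 and 10.96, against 12.35 and 12.66. UHRF1 has 2 matches, on opposite strands, which begin 112 and 14 bases before its start. AURKB, NEK2 and CCNB1 were not among the genes with a match to TTTGAA, and only 48 of the 56 genes of the list had a window.

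Genes linked to senescence moved in both directions. Of 13 genes of the nuclear lamina and chromatin, 8 fell and 1 rose (median -0.64), where 15.0% and 19.4% of all genes did. The count of falls was 5 with array weights. LMNB1, lamin B1, whose loss is a known mark of senescent cells, had log2 levels of 7.07, 7.86 and 8.004 in PLX4720, against 9.59 and 9.56 in DMSO, and fell 3.57-fold (-1.84 ± 0.17; adjusted p = 3.02e-06). Its lowest value came from a 72 h array that was not above background. HMGA1, a chromatin protein, fell 4.11-fold, and GLB1, the lysosomal enzyme behind the senescence-associated beta-galactosidase stain, rose 1.53-fold (adjusted p = 0.0115) and lost its call without the first DMSO array. Among 15 cyclin D, CDK inhibitor and pocket protein genes 1 rose and 4 fell, and 4 and 5 without the first DMSO array. CDKN1B, which encodes p27, rose 2.01-fold (1.01 ± 0.17; adjusted p = 0.000428), although its other probe pointed the other way, and CDKN2A, which encodes p16 and ARF, fell 3.71-fold. CDKN1A, which encodes p21, lay at 15.31, 15.57 and 15.73, against 15.98 and 16.05, and fell (adjusted p = 0.0142), a call lost without the second DMSO array. Its raw DMSO signals of 70573 and 70970 lay among the arrays' maxima of 65700 to 72800, so that the size of the difference was not measured. Of 20 p53 target genes, 2 rose and 1 fell.

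Secreted factors of senescent cells moved in both directions, with more falls than rises. Of 25 measured, 6 rose and 11 fell (median -0.33), where 19.4% and 15.0% of all genes did. Compared with 96 h, 2 of the 25 were higher at 48 to 72 h and 6 were lower, where 1.30% and 0.872% of all genes were. CCL2, a monocyte chemokine, had log2 levels of 14.29, 14.42 and 14.56 in PLX4720, against 12.08 and 12.40 in DMSO, and rose by 2.17 ± 0.14 on the log2 scale (adjusted p = 1.37e-07). IL6 lay at 8.62, 9.50 and 9.90, against 7.60 and 7.85, and rose 3.19-fold (adjusted p = 7.03e-06). Its time means were 8.87 at 48 h, 9.50 at 60 h and 9.83 at 72 h, and the F test among them did not call it (adjusted p = 0.426). The pooled level of IL6 was 3.06-fold lower than at 96 h (adjusted p = 0.000497). MMP1, a collagenase, lay at 9.72, 10.15 and 10.63, against 13.35 and 13.56, and fell 9.54-fold (-3.25 ± 0.18; adjusted p = 5.65e-08). The groups did not overlap for these genes, while for CXCL8, the chemokine interleukin 8, they did. CXCL8 lay at 8.15, 9.05 and 10.22, against 10.30 and 9.33, and its fall of 0.69 (adjusted p = 0.0394) was lost in 13 of 21 alternatives.

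Some regulators of mitochondrial gene expression rose strongly. PPARGC1A had log2 levels of 11.97, 12.14 and 12.34 in PLX4720, against 9.53 and 8.63 in DMSO, and rose 8.485-fold (3.08 ± 0.21; adjusted p = 2.25e-07). ESRRA, the nuclear receptor through which PGC1-alpha acts on respiratory genes, lay at 10.64, 10.88 and 11.02, against 9.33 and 9.96, and rose 2.34-fold (1.23 ± 0.17; adjusted p = 0.000111). All 6 PLX4720 arrays lay above both DMSO arrays for each. TFAM, which packages and transcribes mitochondrial DNA, rose 1.75-fold (adjusted p = 0.0219), a call lost without the second DMSO array and with median scaling, and TFB1M, a methyltransferase of mitochondrial ribosomal RNA, lay at 9.71, 9.85 and 10.02, against 11.55 and 11.47, and fell 3.16-fold (-1.66 ± 0.16; adjusted p = 4.87e-06). In the list of 12 regulators 3 rose and 1 fell, where 19.4% and 15.0% of all genes did. Without the first DMSO array the counts were 4 and 3.

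Of the nuclear-encoded respiratory chain, 15 of 34 complex I genes rose, 7 of 12 genes of complexes II and III with cytochrome c, 7 of 10 of complex IV and 5 of 18 of complex V, and none fell, where 19.4% of all genes rose. The list medians were 0.37, 0.52, 0.48 and 0.31, against 0.07 for all genes. Most of these shifts were small, and the calls depended on the setting. With median scaling 3 complex I genes rose and 4 fell, 1 gene of complexes II and III rose, none of complex IV moved and 3 of complex V fell. The medians then were -0.04, 0.12, 0.01 and -0.17, which is 0.13, 0.29, 0.19 and 0.00 above the median of all genes in that setting. With array weights 7, 2, 0 and 2 genes rose, and without the first DMSO array 9, 2, 5 and 5. Genes that mitochondrial DNA itself encodes were left out.

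CYCS, cytochrome c, stood out from the other carriers. It had log2 levels of 11.65, 11.84 and 12.19 in PLX4720, against 9.38 and 8.84 in DMSO, and rose 6.81-fold (2.77 ± 0.18; adjusted p = 2.19e-07). SDHD, a membrane subunit of complex II, lay at 12.82, 13.26 and 13.46, against 12.54 and 12.00, and rose 1.91-fold (0.94 ± 0.18; adjusted p = 0.00148). NDUFA6 of complex I lay at 11.63, 11.87 and 12.13, against 10.60 and 10.90, and rose 2.21-fold (1.15 ± 0.16; adjusted p = 0.000135). No PLX4720 array overlapped a DMSO array for these. COX6C of complex IV rose 1.66-fold and ATP5PF of complex V 1.69-fold, and both calls were lost with median scaling. NDUFB1 rose 2.29-fold, COX6A1 1.63-fold and ATP5PO 1.65-fold. The calls of SDHD, COX6A1 and ATP5PO were lost with median scaling as well. Those of COX6C, COX6A1 and ATP5PF were also lost with array weights.

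SDHD was the only gene of its list with the letters of the estrogen-related receptor element, TCAAGGTCA, among 9 promoters of the list (11.1%), against 0.359% of all promoters and 0.195% of those of tested genes. The site is shown because ESRRA was also among the genes that rose, and no link between ESRRA and SDHD was tested. It begins at base 12 of the transcript, and the capitals are its reverse complement on the printed strand.
SDHD (chr11:112086623-112086922, plus strand): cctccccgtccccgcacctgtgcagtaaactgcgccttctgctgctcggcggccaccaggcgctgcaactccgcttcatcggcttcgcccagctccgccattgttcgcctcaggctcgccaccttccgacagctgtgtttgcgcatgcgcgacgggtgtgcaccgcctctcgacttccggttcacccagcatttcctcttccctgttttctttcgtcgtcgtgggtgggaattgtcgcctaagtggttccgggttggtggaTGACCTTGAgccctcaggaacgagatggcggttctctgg
CYCS was not among the genes with this match, and only 9 of the 12 genes of the list had a window.

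Some enzymes that feed the respiratory chain rose as well. In the tricarboxylic acid cycle with pyruvate dehydrogenase 7 of 17 genes rose and 1 fell (median 0.50), where 19.4% and 15.0% of all genes did. In fatty acid oxidation 12 of 19 rose and 2 fell (median 0.57). With median scaling these counts were 2 and 2, and 4 and 4. IDH3A, a subunit of the cycle's NAD-linked isocitrate dehydrogenase, had log2 levels of 11.65, 11.82 and 11.93 in PLX4720, against 10.15 and 10.01 in DMSO, and rose 3.30-fold (1.72 ± 0.14; adjusted p = 1.29e-06). ETFDH, which passes electrons from fatty acid oxidation to ubiquinone, lay at 12.00, 12.18 and 12.35, against 10.57 and 10.47, and rose 3.19-fold (1.68 ± 0.13; adjusted p = 7.09e-07). These groups did not overlap, and the 3 time means of IDH3A differed by only 0.05. MDH1, a malate dehydrogenase, rose 2.42-fold and DECR1, which acts on unsaturated fatty acids, 2.35-fold. ECI2 fell 1.92-fold and IDH2 1.75-fold, and the call of IDH2 was lost in 7 of 22 alternatives, among them that without the second DMSO array. Of 76 genes of the mitochondrial ribosome 14 rose and 6 fell (median 0.04), again where 19.4% and 15.0% of all genes did. With median scaling the counts were 5 and 22, and without the first DMSO array 12 and 13.

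Of 22 genes of glycolysis and glucose transport 1 rose and 5 fell (median -0.04), where 19.4% and 15.0% of all genes did, and without the second DMSO array 4 rose and 3 fell. The gene that rose was HK2, the hexokinase at the head of the pathway, with log2 levels of 13.32, 13.34 and 13.48 in PLX4720, against 11.69 and 11.73 in DMSO (3.17-fold; 1.67 ± 0.13; adjusted p = 7.99e-07). GAPDH lay at 14.29, 14.68 and 14.79, against 15.97 and 15.55, and fell (adjusted p = 0.000149), with raw DMSO signals of 70535 and 68704 among the arrays' maxima of 65700 to 72800, so that the size of the fall was not measured. Both genes had groups that did not overlap. The glucose transporter SLC2A3 fell 1.98-fold, whereas SLC2A1, the main transporter of many tumour cells, differed by 0.04 ± 0.20 (adjusted p = 0.911). TXNIP, which restrains glucose uptake, differed by 0.21 ± 0.14 (adjusted p = 0.29), and its sign turned with median scaling. IRS2, an adaptor of insulin signalling, rose 2.34-fold (adjusted p = 2.49e-05).

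Most genes of sterol and fatty acid synthesis fell. Of 19 genes of sterol synthesis and uptake 16 fell and none rose, with the lowest median of any list, -2.20. Of 10 genes of fatty acid synthesis 9 fell (median -1.23), where 15.0% of all genes fell. MSMO1, a demethylating oxidase of the cholesterol pathway, had log2 levels of 9.61, 9.82 and 10.11 in PLX4720, against 14.34 and 13.94 in DMSO, and fell 19.6-fold (-4.29 ± 0.16; adjusted p = 2.15e-09), with 2 of its 3 probes pointing down. HMGCS1, the synthase that makes HMG-CoA, lay at 10.76, 11.01 and 11.34, against 14.92 and 13.79, and fell 9.88-fold (-3.31 ± 0.25; adjusted p = 5.63e-07). CYP51A1, lanosterol demethylase, lay at 8.67, 9.01 and 9.31, against 12.36 and 12.30, and fell 9.99-fold. The PLX4720 arrays were at least several-fold under both DMSO arrays for each. ACSS2, which makes acetyl-CoA from acetate, fell 5.74-fold. FASN, fatty acid synthase, also fell (adjusted p = 5.57e-06), with raw DMSO signals of 68537 and 70088 that lay among the arrays' maxima of 65700 to 72800, so that the size of its fall was not measured. Among 18 sterol promoters the letters TCACNCCAC of the sterol regulatory element were found in 1 (5.56%), that of SREBF2, against 1.15% of all promoters and 1.08% of those of tested genes, and SREBF2 did not pass the test (-0.39; adjusted p = 0.0839).

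**Figure D3:**
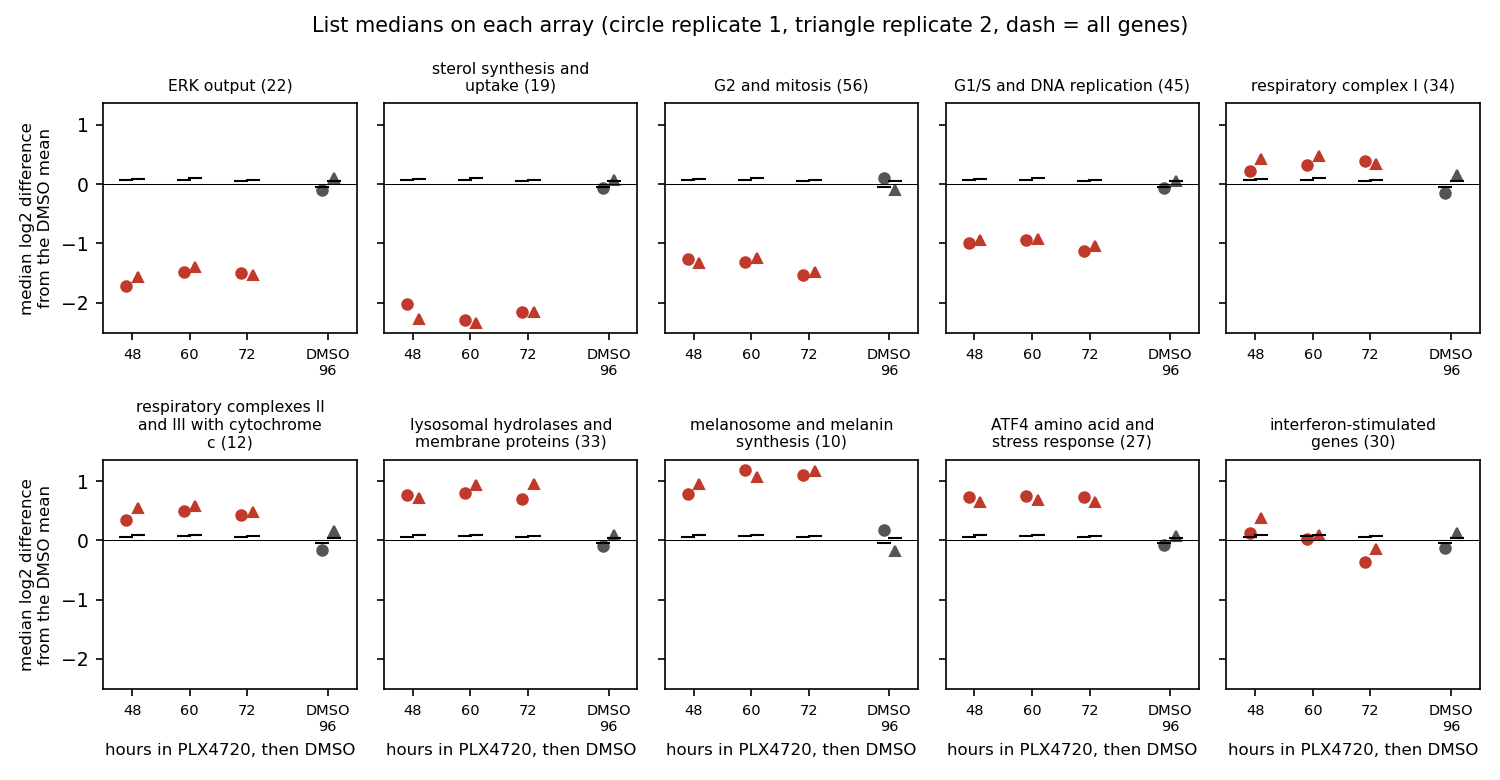
Median log2 difference of 10 gene lists from the DMSO mean (y axis) on each array at 48, 60 and 72 h in PLX4720 (red) and in DMSO at 96 h (grey), with the number of genes in brackets. Circles are replicate 1, triangles replicate 2, and dashes mark the median of all genes on the same array. The interferon list has time medians of 0.22 at 48 h and -0.17 at 72 h, and the ERK, sterol and cell cycle lists lie far below both DMSO arrays at each time.

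Most lysosomal genes rose. Of 33 genes for lysosomal hydrolases and membrane proteins 23 rose and 3 fell (median 0.80), where 19.4% and 15.0% of all genes did. Of 14 genes of the lysosomal proton pump 9 rose and none fell (median 0.57). The count of 9 was 2 with median scaling and 4 with array weights. CTSK, the protease cathepsin K, had log2 levels of 15.71, 15.87 and 15.94 in PLX4720, against 13.64 and 13.72 in DMSO, and rose 4.54-fold (2.18 ± 0.13; adjusted p = 6.19e-08). CTSF, cathepsin F, lay at 12.95, 13.09 and 13.20, against 10.99 and 11.56, and rose 3.52-fold (1.82 ± 0.16; adjusted p = 1.94e-06). Neither gene overlapped between groups. ATP6V1D of the proton pump rose 2.93-fold, NPC1, the lysosomal cholesterol transporter, fell 1.63-fold and PPT1 fell 1.61-fold. Of 24 autophagy genes 8 rose and none fell, 2 and 1 with median scaling, among them the receptor OPTN (2.64-fold) and ATG14 (1.94-fold). Against 24 h, 13 of the 33 lysosomal genes were higher and 1 was lower, where 6.86% and 7.96% of all genes were.

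The letters TCACGTGA, the palindromic site of lysosomal genes that the factor TFEB is known to bind, were present in 4 of 24 promoters of the lysosomal list (16.7%), against 1.04% of all promoters and 1.94% of those of tested genes. The 4 genes were CTSA, GAA, LAMP1 and MCOLN1. CTSA, which protects beta-galactosidase in the lysosome, had the largest difference of the 4 and is printed for that reason, chosen after its values were seen.
CTSA (chr20:45891085-45891384, plus strand): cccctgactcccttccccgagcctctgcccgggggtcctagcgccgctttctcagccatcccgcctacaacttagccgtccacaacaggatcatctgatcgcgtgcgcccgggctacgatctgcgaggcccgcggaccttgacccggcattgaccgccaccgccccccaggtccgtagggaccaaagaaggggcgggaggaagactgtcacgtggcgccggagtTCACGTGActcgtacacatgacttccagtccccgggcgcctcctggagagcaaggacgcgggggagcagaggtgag
The match begins 26 bases before the start. CTSA lay at 13.85, 14.07 and 14.42 in PLX4720, against 12.29 and 12.53 in DMSO, and rose by 1.72 on the log2 scale (adjusted p = 4.6e-05).

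Most pigment genes rose, and most stood higher than at 24 h. Of 10 genes of melanosomes and melanin synthesis 7 rose and none fell (median 1.02), where 19.4% and 15.0% of all genes did. Of the 10, 6 were also higher than at 24 h, where 6.86% of all genes were. Of 13 regulators of the melanocyte lineage and neural crest 7 rose and 2 fell (median 0.79). MLPH, which carries melanosomes along actin, had log2 levels of 12.74, 12.96 and 13.19 in PLX4720, against 10.59 and 10.88 in DMSO, and rose 4.69-fold (2.23 ± 0.14; adjusted p = 1.69e-07). PMEL, the fibril protein of melanosomes, lay at 9.03, 10.16 and 10.88, against 6.97 and 7.62, and rose 6.76-fold (2.76 ± 0.20; adjusted p = 3.43e-07), with 1 DMSO array above background. TYR, tyrosinase, lay at 7.56, 7.92 and 8.58, against 6.28 and 5.88 with no DMSO array above background, and was at least 1.55-fold higher. The groups were apart for all of these. MITF rose 2.11-fold (1.08 ± 0.21; adjusted p = 0.00179), a call lost with median scaling, and TYRP1 1.75-fold (adjusted p = 0.00387), a call lost without the second DMSO array. SOX10 overlapped between the groups and differed by 0.46 ± 0.18 (adjusted p = 0.0667), a value that ran from 0.13 to 0.79 when 1 array was left out and passed without the second DMSO array (adjusted p = 0.00752). NGFR, the nerve growth factor receptor of neural crest cells, rose 5.24-fold and SNAI2 3.14-fold. MC1R fell 1.74-fold, again not without the second DMSO array, and of the melanoma markers S100B fell 4.87-fold, with 3 of 6 PLX4720 arrays above background, and CSPG4 5.64-fold.

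Most stress genes of the ATF4 list rose. Of 27 genes for amino acid supply and stress 18 rose and 1 fell (median 0.64), where 19.4% and 15.0% of all genes did, and with median scaling 11 rose and 3 fell. ATF3, a stress-induced transcription factor, had log2 levels of 13.37, 13.46 and 13.66 in PLX4720, against 10.44 and 10.83 in DMSO, and rose 7.27-fold (2.86 ± 0.15; adjusted p = 2.05e-08). DDIT3, the factor CHOP, lay at 11.39, 11.60 and 11.79, against 9.74 and 9.43, and rose 4.04-fold (2.02 ± 0.14; adjusted p = 3.32e-07). TRIB3, a pseudokinase that ATF4 and CHOP induce, went the other way, at 10.80, 11.22 and 11.50, against 11.84 and 12.33, a 1.87-fold fall (adjusted p = 0.00155). All 3 genes had groups that did not overlap. Chaperones and other genes of the unfolded protein response in the endoplasmic reticulum showed 3 rises and 4 falls among 17 genes, and 1 and 0 without the second DMSO array. Of 16 targets of the antioxidant factor NRF2, 4 rose and 5 fell. HMOX1, heme oxygenase, rose 2.34-fold and TXNRD1, thioredoxin reductase, 2.02-fold, while the NADPH-making enzymes ME1 and PGD fell 2.45-fold and 2.33-fold. Against 24 h none of the 16 was higher and 10 were lower, where 6.86% and 7.96% of all genes were.

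Interferon-stimulated genes were mixed against DMSO, with 9 of 30 higher and 5 lower, where 19.4% and 15.0% of all genes were. With median scaling the counts were 6 and 12. IFI27 lay at 8.33, 8.95 and 9.68 in PLX4720, against 6.78 and 6.91 with no DMSO array above background, and was at least 3.10-fold higher (adjusted p = 3.03e-07). BST2, a membrane tether of budding viruses, lay at 6.45, 7.61 and 7.99 with 3 of 6 PLX4720 arrays above background, against 10.13 and 10.71, and fell 8.18-fold (-3.03 ± 0.26; adjusted p = 1.85e-06). The groups were apart for both. The median difference of this list from DMSO was 0.22 at 48 h, 0.01 at 60 h and -0.17 at 72 h. Medians of MHC class II genes, at 0.40, 0.31 and 0.11, and of endoplasmic reticulum chaperones, at 0.12, -0.02 and -0.11, took the same order, and the order was not tested. Against 24 h 17 of the 30 genes were lower and 1 was higher, where 7.96% and 6.86% of all genes were, and against 96 h 7 were higher and none was lower, where 1.30% and 0.872% of all genes were. Of 13 genes of MHC class I presentation 7 rose and none fell (median 0.58), 3 of them with median scaling. TAP2, a peptide transporter, rose 2.81-fold (adjusted p = 1.39e-05) and B2M, the light chain of class I molecules, 2.19-fold (adjusted p = 0.00183).

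Genes of cell death, of SMAD signalling and of the surroundings of the cell changed one by one. BMF, a BH3-only killer protein, had log2 levels of 10.41, 10.48 and 10.65 in PLX4720, against 7.75 and 7.75 in DMSO, and rose 6.69-fold (2.74 ± 0.15; adjusted p = 3.05e-08), whereas PMAIP1 (NOXA) fell 2.81-fold. Of 18 genes related to BCL2, 5 rose and 2 fell. ID3, an inhibitor of helix-loop-helix factors, lay at 11.88, 12.00 and 12.34, against 8.06 and 8.74, and ID2 rose 6.02-fold. Both ID genes stood clear of DMSO, but ID1 did not: its difference was -0.16 ± 0.17 (adjusted p = 0.496). In the same list of 9 ID and SMAD feedback genes BAMBI fell 3.05-fold and SMAD7 2.21-fold. CCN2, a matrix protein used as a readout of YAP, lay at 9.43, 9.66 and 9.77, against 12.44 and 12.49, and fell 7.13-fold (-2.83 ± 0.13; adjusted p = 7.99e-09), in a list of 16 YAP and TEAD targets with 2 rises and 6 falls. Integrins split, with ITGA2 up 3.05-fold and ITGA6 down 7.28-fold, and among 30 collagen, laminin and integrin genes 9 rose and 11 fell. Of 12 receptor tyrosine kinases none rose and 4 fell, EPHA2 2.97-fold and MET 2.29-fold among them. ERBB3 differed by 0.13 ± 0.15 (adjusted p = 0.53) and AXL by -0.50 ± 0.21 (adjusted p = 0.0795). Among 13 hypoxia genes 5 rose and none fell, among 13 genes of insulin and FOXO signalling 4 rose and 2 fell, and among 9 genes of the MYC and MAX network 2 rose and 2 fell. For 18 repair genes the counts were 1 and 8, for 27 ribosome biogenesis genes 3 and 4, and for 10 MHC class II genes 3 and 0, which became 0 and 1 without the first DMSO array. These counts are to be read against the 19.4% and 15.0% of all genes that rose and fell, and several lie near them. Among the marker lists, 4 melanoma markers rose and 3 fell of 9, 1 and 1 of 3 tested fibroblast markers, 1 and 1 of 4 leukocyte markers, and none of 2 keratinocyte and 2 endothelial markers. The fibroblast marker DCN and the leukocyte marker CD2 were the rises, 1.85-fold and 2.48-fold, and whether other cells had a part in any result was not tested.

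Some genes had nearly equal means at the 3 times. The rises over 4-fold with the smallest span of time means were NPTX1, RUNX1 and CRHBP, and the falls were NEDD9, RIPOR2 and CASP1. NPTX1 averaged 12.55 at 48 h, 12.61 at 60 h and 12.60 at 72 h, against 8.25 and 8.48 on the DMSO arrays. NEDD9, a scaffold of focal adhesions, averaged 8.64, 8.63 and 8.62, against 11.47 and 11.56, and fell 7.39-fold (-2.88 ± 0.18; adjusted p = 9.94e-08). The groups did not overlap. RUNX1, a Runt transcription factor, rose 4.89-fold and CRHBP, which binds corticotropin-releasing hormone, 7.28-fold. CASP1, the protease that matures interleukin 1, fell 5.11-fold, and RIPOR2, above background on no PLX4720 array, was at least 3.73-fold lower, and its small span is that of a probe at background.

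Other genes kept moving through the window. SCARA5, a scavenger receptor that binds ferritin, averaged 8.93 at 48 h, 8.13 at 60 h and 6.96 at 72 h, where it was not above background, and was at least 2.93-fold lower at 72 h than at 48 h (log2 difference -1.97 ± 0.20; adjusted p of the F test = 0.0106). Its arrays at 48 h lay near the DMSO levels of 8.95 and 9.20, those at 72 h far below. A pairwise test of 72 h against 48 h called 20 genes (0.157%), 4 higher and 16 lower, and that of 60 h against 48 h none, with 418 genes at an unadjusted p under 0.05. PMEL was among the 4 with time means of 9.20, 10.16 and 10.77, and CXCL8 with 8.19, 9.05 and 10.13. Both rose steadily, from different sides of DMSO. IFI44L, an interferon-stimulated gene, was among the 16, at 9.59, 8.83 and 7.56, and so was TCN1, a cobalamin carrier, at 10.83, 10.27 and 9.39. The pooled differences from DMSO of these genes are means over a slope and describe no single time.

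**Figure D4:**
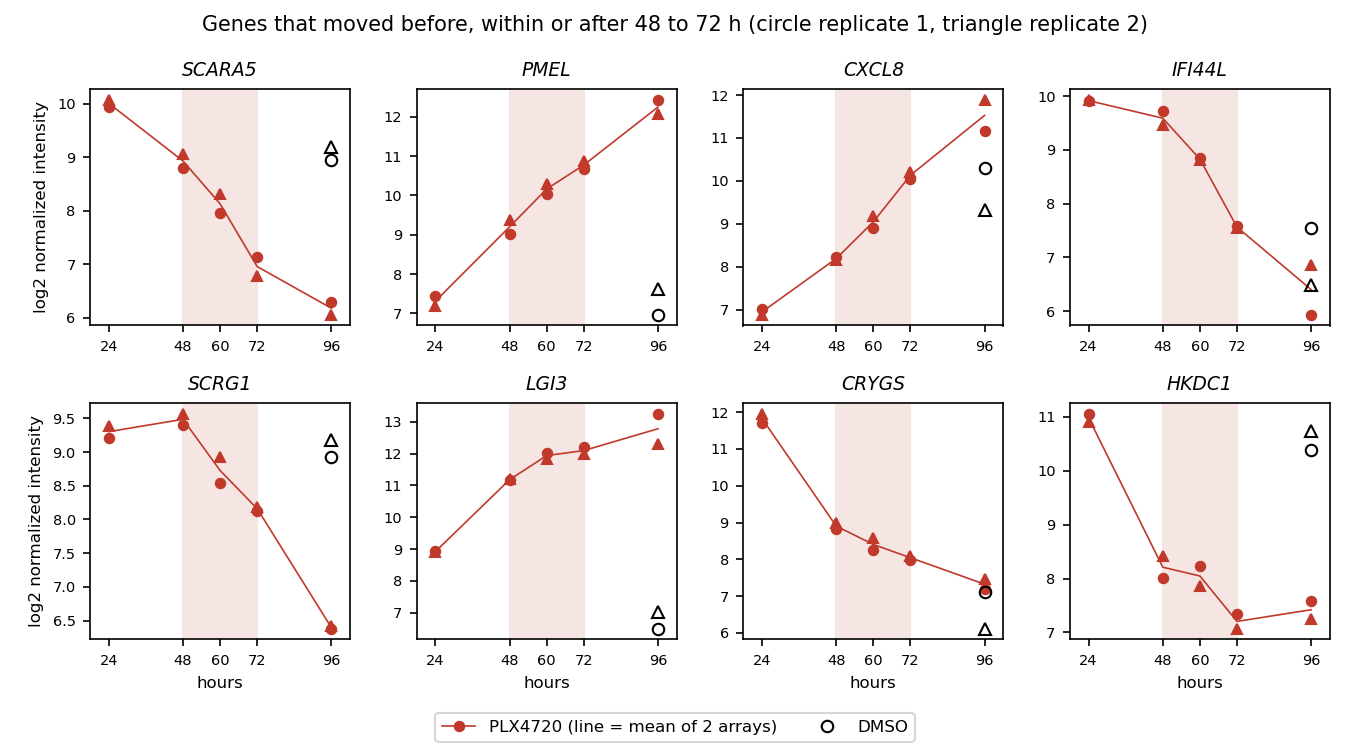
Log2 normalized intensity (y axis, with its own range in each panel) of 8 genes at 24, 48, 60, 72 and 96 h in PLX4720 (red, line through the mean of 2 arrays) and in DMSO at 96 h (open symbols), with the pooled window shaded. Circles are replicate 1 and triangles replicate 2. PMEL and CXCL8 climb and SCARA5, IFI44L and SCRG1 fall through the window, while LGI3, CRYGS and HKDC1 made most of their change before 48 h.

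Between 24 h and the pooled window 1888 genes differed (14.8%), 874 higher at 48 to 72 h (6.86%) and 1014 lower (7.96%). The largest rises were SORCS2, CRYAB, LGI3 and NPTX1. At 24 h the means of CRYAB, LGI3 and NPTX1 were already 11.54, 8.92 and 9.825, against DMSO means of 9.84, 6.75 and 8.37. The difference between 24 h and DMSO was not tested. CRYAB had log2 levels of 14.11 to 15.22 at 48 to 72 h, against 11.59 and 11.50 at 24 h, a 9.19-fold rise (3.20 ± 0.20; adjusted p = 1.21e-06). LGI3 rose 7.08-fold and NPTX1 6.78-fold after 24 h, and SORCS2, not above background at 24 h, was at least 7.05-fold higher. By contrast DIPK1C, ID3 and FOXQ1 differed from 24 h by 0.20, 0.09 and -0.28, and none of these passed. The largest falls were CRYGS, ART3, HKDC1 and PPP2R2B. CRYGS, a lens crystallin, lay at 7.997 to 8.99 at 48 to 72 h, against 11.69 and 11.96 at 24 h, and fell 10.4-fold from 24 h (-3.38 ± 0.22; adjusted p = 1.69e-06). HKDC1, a hexokinase-like gene, fell 8.95-fold, ART3 10.0-fold and PPP2R2B, a phosphatase subunit, 7.25-fold. CRYGS remained above the DMSO arrays, where it was not above background, and the other members of this group of 4 lay below them. This comparison rested on the 24 h pair: without its first array 751 genes differed and without its second 549.

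Between the pooled window and 96 h 277 genes differed (2.18%), 166 higher at 48 to 72 h (1.30%) and 111 lower (0.872%). SCRG1 lay at 8.13 to 9.57 at 48 to 72 h, against 6.38 and 6.41 at 96 h where it was not above background, and was at least 2.61-fold higher (adjusted p = 1.17e-05). IFI44L, also not above background at 96 h, was at least 2.38-fold higher, TCN1 4.59-fold and CD96, a receptor of lymphocytes, 3.84-fold. On the other side CXCL8 lay at 8.15 to 10.22, against 11.16 and 11.89 at 96 h (5.28-fold lower; -2.40 ± 0.24; adjusted p = 0.000344), PMEL was 4.60-fold lower, CEMIP 3.46-fold and IL1B, above background on 1 of the 6 arrays, 3.51-fold lower (adjusted p = 0.00843). SCRG1, IFI44L, TCN1, CD96, CXCL8 and PMEL had also differed between 72 h and 48 h in the same direction, and CEMIP and IL1B had not passed that test. The count of 277 depended on single arrays, and was 41 without the first 96 h array and 25 without the second. The comparisons with DMSO, 24 h and 96 h share the 48 to 72 h arrays.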

How the data were processed

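Total RNA was labelled as biotin cRNA for 1-colour Illumina arrays, per the labels' protocols. Of the scanner and its software no source used names the kind. The deposited signal table holds intensity values per probe, not normalized between arrays, and 28 further columns of it are empty. A second deposited table holds log2 values that the authors had quantile normalized (median 8.41 in every column) and was used as an alternative.

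Signals were background-corrected (normexp, offset 16), turned to log2 and quantile normalized over 14 arrays with limma 3.58.1 in R 4.3.3. Of 47322 probes 30113 had 1 gene name in the platform annotation, 8 had several and 17201 were not named, and 30074 matched RefSeq genes. A probe was above background where it passed the array's mode of log2 signals by the upper 1% of a normal curve fitted to the values under the mode. The brightest probe per gene above background on at least 2 of 14 arrays was kept, for 12734 genes. limma's lmFit and eBayes were fitted over 7 groups, with Benjamini-Hochberg adjustment over all genes at 0.05 (2-sided tests). The array count limits the precision, with 7 residual degrees of freedom. Array weights, scaling, background, probe choice, filter, groups in the fit, replicate block and left-out arrays were varied. The script was tested on simulated data.

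A gene below background on all arrays of a group has only a lower bound on its fold change. Genes were named by rule: the 12 largest rises and falls with groups apart, the 2 largest each way in each list, a short fixed list, the 3 steadiest rises and falls, and the 4 largest each way among times, against 24 h and against 96 h. The samples and the 44 gene lists were chosen with earlier results of these data known. Same-numbered deviations correlated at 0.152 to 0.414 between treated groups and at -0.203 to 0.418 between treated groups and DMSO. With only 2 numbers, and no label that ties them to a shared culture or day, they were not taken as pairs.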

Additional observations from a re-analysis of the deposited data

Results flagged for a closer look

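Among 172 named genes and the medians of 44 lists, 8 genes and 3 lists had 1 of the 6 PLX4720 arrays at 48 to 72 h further from the others than Dixon's critical value allows. Chance alone gives about 1 in 20. SPINK1 was low on the first 48 h array, at 10.395, with the other 5 between 10.836 and 11.086. CTSK was low on the same array, at 15.71, with the others between 15.859 and 15.937. TXNRD1 was low on the second 60 h array, at 12.364, with the others between 12.55 and 12.612, and so was ATP6V1D, at 13.576, with the others between 13.819 and 13.96. FANCI was high on the first 72 h array, at 8.258, with the others between 7.891 and 8.019, and LMNB1 was low there, at 7.072, with the others between 7.712 and 8.004. MCM2 was low on the second 72 h array, at 8.724, with the others between 9.02 and 9.166. IL1B was high on the first 60 h array, at 7.591, with the others between 6.832 and 7.095.

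The median of the hypoxia list was high on the first 48 h array, at 0.516, with the others between 0.264 and 0.323. The median of collagens, laminins and integrins was low on the second 72 h array, at -0.275, with the others between -0.053 and 0.066. The median of the keratinocyte markers was low on the first 72 h array, at -0.714, with the others between -0.107 and 0.134, and rests on 2 genes. No cause of these values was tested. SCARA5 differed among the 3 times of treatment, with a log2 difference of -1.975 between 72 h and 48 h.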

How the results depend on the processing

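The count of 4384 genes against DMSO was within 1.5 times in every alternative except array weights, which gave 1962 (1064 higher and 898 lower). Leaving out 1 array gave 3673 to 4888, with 2080 to 2808 higher and 1593 to 2080 lower. Median scaling turned the split to 1052 higher and 3065 lower. Against 24 h the count of 1888 became 1184 with median scaling, 3191 with array weights and 1103 with all probes, and 549 to 1669 without 1 array. Against 96 h the count of 277 became 58 with median scaling, 487 without background correction, 448 in the deposited normalized table, 1478 with array weights and 47 with all probes, and 25 to 164 without 1 array. Among 48, 60 and 72 h, 1 gene became 2 with median scaling, 12 without background correction and with an offset of 50, 13 in the deposited table and 25 with array weights. It became 0 with 8 arrays in 4 groups, with all probes and with the filter on all 14 arrays, and 0 to 1 without 1 array. With the replicate block, although the numbers were not taken as pairs (same-numbered treated arrays deviated together in all pairs of treated groups), 5145 genes differed from DMSO, 2551 from 24 h, 664 from 96 h and 8 among the 3 times. The cause of these changes was not tested.

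Of 163 genes named against DMSO 156 passed, 117 of them in every alternative that gave a value, and 39 lost their call in at least 1. With the filter on all 14 arrays 32 of the 163 had no value. None of the 156 changed sign. Of the 7 that did not pass, AXL passed in 5 alternatives, SOX10 in 4 and MKI67 in 1. The sign of 5 of the 7 changed in at least 1 alternative. With median scaling the log2 differences were -0.01 for SOX10, -0.323 for SLC2A1, -0.35 for TXNIP and -0.266 for ERBB3. SLC2A1 was at -0.012 without the 60 h group and -0.014 without the 72 h group, and ID1 at 0.032 without the 72 h group. Without 1 array SLC2A1 ranged from -0.286 to 0.359 and ID1 from -0.342 to 0.016. IL1B lost its call against 96 h with all probes and without either 96 h array.

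The arrays' number sets the precision: 2 DMSO arrays that differed more than other pairs, both taken at 96 h. Genes near background have bounds, not folds.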
